A study of Mus musculus with 12 samples.

Results

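The core circadian clock of the mouse liver was followed through 10 genes in 12 livers. The genes are the activators Arntl (also called Bmal1), Clock and Npas2, the repressors Per1, Per2, Per3, Cry1 and Cry2, and the Rev-erb repressors Nr1d1 and Nr1d2. They were chosen by name as textbook members of this clock, after their levels in untreated livers had drawn notice. All 10 have a row among the 51609 gene rows of the deposited table, and all 10 are among the 17652 genes that passed the filter on low counts. Each of 4 groups held 3 C57BL/6 mice aged 5 to 7 weeks. Wild-type mice were Cre-negative littermates carrying floxed alleles of both Rela and Stat3. The mice labelled RelaΔhepStat3Δhep carried the same floxed alleles with Cre driven by the albumin promoter, which acts in hepatocytes, so that other liver cells keep both genes. Mice of either genotype were left untreated on water or received 2% dextran sodium sulfate (DSS), a polymer that injures the colon, in the drinking water for 6 days. The hour at which the livers were collected is not given in the sources used here, and the labels do not say whether the groups were collected at the same hour.

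In this clock, the protein pair formed by ARNTL with CLOCK, or with its relative NPAS2, binds E-box sequences and switches on the Per, Cry and Rev-erb genes. The PER and CRY proteins then return to the nucleus and block that pair. In a second loop the nuclear receptors encoded by Nr1d1 and Nr1d2 repress Arntl and Npas2, so that in a normal liver the activators peak around dawn, the Rev-erb genes around midday, the Per genes around dusk and Cry1 in the night. Each gene's level in a liver therefore depends on the hour of collection as well as on the state of the clock.

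Total expected counts per library ran from 65879529 to 82850098, and the members' own expected counts from 27 (Npas2) to 10927 (Clock) per liver. Levels are given as normalised counts, which are counts scaled to a common library size with edgeR's TMM factors (CPM). Of the targeted genes, Stat3 was at 45.9, 46.7 and 49.7 CPM in untreated and 43.0, 58.0 and 74.8 CPM in DSS-treated livers labelled RelaΔhepStat3Δhep, against 45.7, 138 and 87.6 CPM and 63.2, 330 and 307 CPM in wild-type livers. Rela was at 39.5 to 62.3 CPM over all 12 livers and was not lower in the livers labelled RelaΔhepStat3Δhep. Counts per gene do not separate the deleted exons from the rest, so the genotypes rest on the labels. Hepatocyte markers of the labelled tissue were present in every library, the sum of 5 being 79400 to 166000 CPM. The sex-linked transcripts were unevenly spread. Xist, expressed from the inactive X chromosome of females, was at 903 to 1280 CPM in the 3 DSS-treated livers labelled RelaΔhepStat3Δhep and at 1140 CPM in wild-type untreated mouse 3, where Y-linked genes were also present at 30.1 CPM, and at 29.0 CPM or less in the other 8. The wild-type DSS-treated mouse 2 stood apart in its summed neutrophil markers, at 85.1 CPM against 0.345 to 21.7 CPM in the other 11 livers. Kupffer cell markers summed to 565 to 920 CPM in the DSS-treated livers labelled RelaΔhepStat3Δhep and to 277 to 307 CPM in the untreated ones.

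Nr1d1, which encodes the repressor REV-ERBα, was the member that differed most between the genotypes. Untreated wild-type livers held 71.5, 108 and 97.6 CPM, and untreated livers labelled RelaΔhepStat3Δhep held 4.98, 8.61 and 7.45 CPM. After DSS the levels were 57.5, 43.3 and 91.3 CPM in wild-type livers and 4.07, 3.15 and 4.18 CPM in the livers labelled RelaΔhepStat3Δhep. The lowest of the 6 wild-type livers was thus far above the highest of the 6 labelled RelaΔhepStat3Δhep, whether or not DSS was given. In untreated livers, where the pattern was noticed and no test applies, the mean was 13.2-fold lower, a log2 fold change of -3.72 ± 0.30 (SE, n = 3 per group). The DSS-treated livers are other mice, whose results were also known when the genes were chosen. There the log2 fold change was -4.08 ± 0.31 (SE, n = 3 per group) with an edgeR adjusted p of 0.00016. Over the 17652 genes tested, 75 had a lower log2 fold change in that comparison. The DSS response of Nr1d1 differed between the genotypes by a log2 value of -0.36 ± 0.38 (SE, n = 3 per group), with an edgeR adjusted p of 0.676. Xist was high in all 3 DSS-treated livers labelled RelaΔhepStat3Δhep and low in all 3 wild-type livers given DSS, so sex-linked transcripts and genotype cannot be told apart there. In untreated livers with low Xist, Nr1d1 was at 71.5 and 108 CPM in wild-type and at 4.98 to 8.61 CPM in the livers labelled RelaΔhepStat3Δhep.

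**Figure D1:**
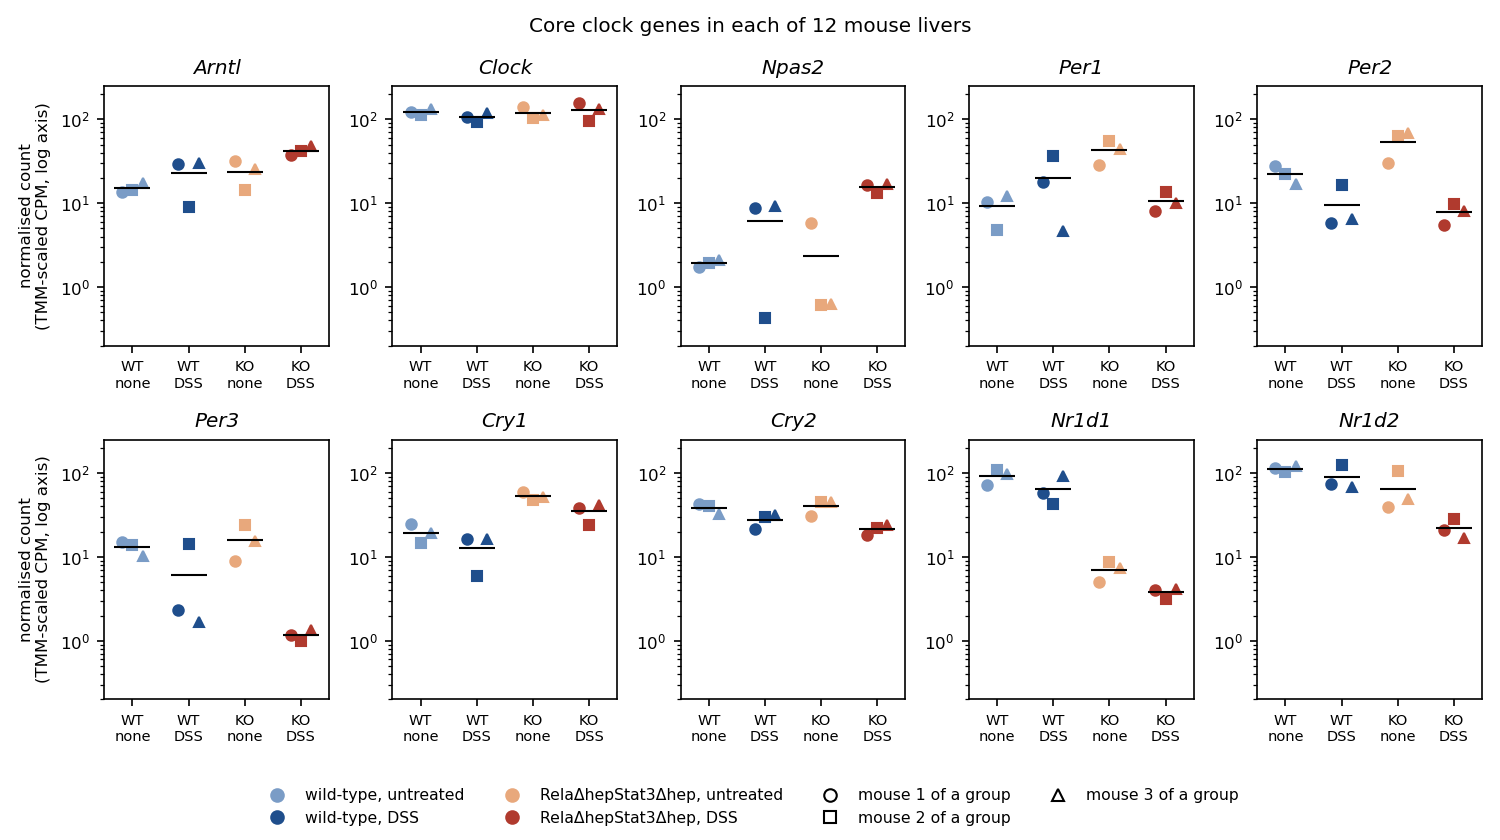
Normalised counts (TMM-scaled CPM, log axis) of the 10 core clock genes in each liver. WT marks wild-type and KO the livers labelled RelaΔhepStat3Δhep, none marks untreated, symbols mark mice 1 to 3 of a group and black lines mark group means. Nr1d1 sits at 43.3 CPM or more in the 6 wild-type livers and at 8.61 CPM or less in the other 6.

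In mm9 and GENCODE vM1, Nr1d1 lies on chromosome 11 from 98629246 to 98636647 on the minus strand, with 9 exons. Of its exon bases, 263, or 8.42%, overlap an exon of Thra on the other strand, and no strand setting is given in the sources used here. Thra, a thyroid hormone receptor, was at 9.56 to 15.8 CPM over the 12 livers, and its log2 fold change between the DSS-treated genotypes was -0.133 (edgeR adjusted p = 0.754). Stat3 is on the same chromosome, 2.11 Mb away. The 34 genes tested between Nr1d1 and Stat3 had a median log2 fold change of -0.01 between the DSS-treated genotypes, in a range of -1.08 to 2.22, and so lay above the -4.08 of Nr1d1 throughout.

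Nr1d2, which encodes the related repressor REV-ERBβ, was lower in the livers labelled RelaΔhepStat3Δhep by a smaller amount. It was at 115, 104 and 120 CPM in untreated and 74.4, 125 and 68.1 CPM in DSS-treated wild-type livers. The corresponding livers labelled RelaΔhepStat3Δhep held 39.4, 105 and 48.5 CPM untreated and 20.8, 28.7 and 16.8 CPM after DSS. The untreated genotypes overlapped because of mouse 2, while the DSS-treated ones did not. Between the DSS-treated genotypes the log2 fold change was -2.01 ± 0.36 (SE, n = 3 per group) with an edgeR adjusted p of 0.0481, and this call was kept when wild-type mouse 1 was left out and lost when any of the other 5 livers was (adjusted p up to 0.196). It was kept in 5 of 8 alternatives and lost with limma-voom (adjusted p = 0.0632), with no filter on low counts (0.0833) and with sex as a covariate (0.663 at a log2 fold change of -2.15). The log2 ratio of Nr1d1 to Nr1d2 was -1.52 to 0.42 in the 6 wild-type livers and -3.61 to -2.00 in the livers labelled RelaΔhepStat3Δhep. The 2 ranges did not overlap.

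Of the 10 members, these 2 were called between the DSS-treated genotypes, both lower, beside a background of 0.147% of tested genes called lower (0.334% in either direction). The DSS-treated genotypes did not overlap in 6 of the 10, beside 16.8% of tested genes, and the untreated ones in 4 of the 10, beside 20.2%. The untreated count is on the values that chose the genes, and the results of the DSS-treated livers were also known at that choice. Nothing is therefore read from these counts against the shares of tested genes. The 59 genes called over the whole table between the DSS-treated genotypes were 11 to 392 when 1 liver was left out. In that comparison 6 of 6 Kupffer cell markers and 5 of 5 T and B cell markers had log2 fold changes above 0 (medians 0.42 and 1.18). So did 4 of 4 endothelial, 3 of 4 stellate and 3 of 5 hepatocyte markers, while the 3 tested neutrophil markers were below 0. EdgeR called none of these markers, and their part in the members' differences was not tested.

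Of the activators, Arntl and Npas2 are targets of the Rev-erb proteins. Arntl was at 13.7, 14.3 and 17.2 CPM in untreated wild-type livers and at 31.9, 14.3 and 25.3 CPM in untreated livers labelled RelaΔhepStat3Δhep. After DSS it was at 29.6, 8.90 and 30.0 CPM in wild-type livers and at 37.9, 41.4 and 48.1 CPM in the livers labelled RelaΔhepStat3Δhep. The DSS-treated genotypes did not overlap, but the log2 fold change of 0.89 ± 0.40 (SE, n = 3 per group) did not pass the test (edgeR adjusted p = 0.344). The log2 fold change of Arntl was 0.51 without wild-type DSS-treated mouse 2 and 1.14 without mouse 3. In the untreated livers the log2 fold change was 0.66 ± 0.40, against -3.72 for its repressor Nr1d1.

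Npas2, the partner that can stand in for Clock, spread more widely than any other activator. It was at 1.74, 1.95 and 2.13 CPM in untreated wild-type livers and at 8.89, 0.430 and 9.18 CPM after DSS. In the livers labelled RelaΔhepStat3Δhep it was at 5.80, 0.607 and 0.634 CPM untreated and at 16.4, 13.3 and 17.0 CPM after DSS. Mouse 2 of the wild-type DSS group was thus the lowest liver of the 12, while its 2 group mates were above every untreated liver. The comparison of the DSS-treated genotypes gave a log2 fold change of 1.33 ± 1.01 (SE, n = 3 per group; edgeR adjusted p = 0.603). This value was 0.78 without wild-type DSS-treated mouse 2 and 1.74 without mouse 3. Clock itself varied 1.65-fold over the 12 livers, from 94.2 to 156 CPM, and its log2 fold changes in the 4 comparisons were between -0.20 and 0.27.

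Among the direct repressors, Cry1 was higher in the livers labelled RelaΔhepStat3Δhep with and without DSS. It was at 24.5, 14.8 and 19.1 CPM in untreated wild-type livers and at 59.6, 47.9 and 51.3 CPM in untreated livers labelled RelaΔhepStat3Δhep, a log2 fold change of 1.44 ± 0.35 (SE, n = 3 per group) given without a test. After DSS it was at 16.5, 5.87 and 16.2 CPM in wild-type livers and at 38.3, 24.3 and 42.1 CPM in the livers labelled RelaΔhepStat3Δhep, again a log2 fold change of 1.44 ± 0.35. All 6 livers labelled RelaΔhepStat3Δhep were above all DSS-treated wild-type livers, yet the edgeR adjusted p for the DSS-treated genotypes was 0.112. The same difference was called in 2 of 8 alternatives, DESeq2 and the replicate block, where the adjusted p ran from 0.00191 with DESeq2 to 0.763 with sex as a covariate, and in 0 of the 6 fits that left out a liver (0.0612 to 0.331). Cry2 was at 18.1 to 45.2 CPM over all livers, and its genotype log2 fold changes were 0.07 ± 0.19 untreated and -0.36 ± 0.19 after DSS (edgeR adjusted p = 0.42). Cry2 shares 295 exon bases, 4.67% of its exon length, with the lincRNA gene D930015M05Rik on the other strand, which was at 0.769 CPM or less.

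The Per genes, whose products inhibit the activator pair, had genotype log2 fold changes above 0 in untreated livers. After DSS these were below 0, but none passed the test. Per1 was at 10.4, 4.85 and 12.3 CPM in untreated wild-type livers and at 28.6, 54.8 and 44.7 CPM in untreated livers labelled RelaΔhepStat3Δhep. Per2 was at 27.9, 22.4 and 17.0 CPM against 30.4, 62.8 and 68.7 CPM. The groups did not overlap in either gene, and the log2 fold changes, given without a test, were 2.21 ± 0.64 and 1.27 ± 0.43. Per3, by contrast, was at 15.0, 13.8 and 10.2 CPM against 8.97, 23.9 and 15.3 CPM, and its groups overlapped.

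After DSS, Per1 was at 17.9, 36.8 and 4.67 CPM in wild-type livers and at 8.10, 13.7 and 10.2 CPM in the livers labelled RelaΔhepStat3Δhep. Per2 was at 5.76, 16.3 and 6.43 CPM against 5.51, 9.68 and 8.11 CPM, and both genes overlapped between the genotypes. Per3 was at 2.36, 14.4 and 1.67 CPM against 1.17, 0.982 and 1.34 CPM, which did not overlap. Its log2 fold change of -2.40 ± 0.75 did not pass the test (edgeR adjusted p = 0.213) and was -0.80 without wild-type mouse 2. For Per2 the log2 fold change went from -0.29 to 0.35 without that mouse, and for Per1 from -0.89 to -0.09.

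Set beside each other per kilobase of exon, the repressor with the highest level was Nr1d1 or Nr1d2 in the 6 wild-type livers and Cry1 in 5 of the 6 livers labelled RelaΔhepStat3Δhep. The exception was untreated mouse 2 labelled RelaΔhepStat3Δhep, where Nr1d2 was at 21.0 and Cry1 at 15.9 CPM per kilobase. Among wild-type livers, Nr1d2 was above Nr1d1 in DSS-treated mouse 2, at 24.9 against 13.9, and both were at 22.9 in untreated mouse 1. Untreated wild-type livers had mean levels of 29.6 CPM per kilobase for Nr1d1, 22.5 for Nr1d2, 13.9 for Clock, 6.47 for Cry1, 6.08 for Cry2, 5.15 for Arntl, 3.84 for Per2, 1.63 for Per1, 1.35 for Per3 and 0.405 for Npas2. In untreated livers labelled RelaΔhepStat3Δhep the mean of Cry1 was 17.6 CPM per kilobase, above Clock at 13.4, Nr1d2 at 12.8, Per2 at 9.24, Arntl at 8.15, Per1 at 7.58, Cry2 at 6.36, Nr1d1 at 2.25, Per3 at 1.67 and Npas2 at 0.490. Nr1d1 thus had the highest mean of the 10 in untreated wild-type livers, and in the untreated livers labelled RelaΔhepStat3Δhep its mean was above those of Per3 and Npas2 alone. In DSS-treated livers labelled RelaΔhepStat3Δhep, Arntl and Clock both had means of 14.5 CPM per kilobase, and Per3 was at 0.121.

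The DSS response was measured within each genotype, and both responses share their untreated livers with the comparison that brought the genes to notice. In wild-type livers none of the 10 members was called by edgeR, beside 0.685% of tested genes, and 2 members, Per2 and Cry2, were under an unadjusted p of 0.05, as were 14.5% of tested genes. Their log2 fold changes were -1.24 ± 0.43 for Per2 (edgeR adjusted p = 0.212) and -0.47 ± 0.19 for Cry2 (edgeR adjusted p = 0.279). DESeq2 called 1 member, Per2, and 5.95% of the genes it tested. The DSS-treated and untreated wild-type livers did not overlap in the same 2 members, beside 18.7% of tested genes. The wild-type DSS-treated livers were split among themselves: mice 1 and 3 had high Arntl and Npas2 with low Per2, Per3 and Nr1d2, and mouse 2 had the reverse. Without mouse 2, edgeR called Per2 and Per3, with log2 fold changes of -1.88 and -2.69. Mouse 2 is also the liver with high neutrophil markers, whose part in this split was not tested.

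In the livers labelled RelaΔhepStat3Δhep, 7 of the 10 members had log2 fold changes below 0 after DSS and 3 above. EdgeR called 4 of the 10 lower, beside 2.46% of tested genes called lower (7.02% in either direction). The untreated livers are those whose levels brought the genes to notice, so the counts of members are in part set by that choice, and nothing is read from them against the shares of tested genes in either DSS response. Per2 fell from 30.4, 62.8 and 68.7 CPM to 5.51, 9.68 and 8.11 CPM, a log2 fold change of -2.80 ± 0.45 (SE, n = 3 per group; edgeR adjusted p = 0.00764). Per3 fell from 8.97, 23.9 and 15.3 CPM to 1.17, 0.982 and 1.34 CPM, a log2 fold change of -3.78 ± 0.78 (edgeR adjusted p = 0.0213). Cry2 fell from 30.4, 45.1 and 45.2 CPM to 18.1, 22.2 and 24.1 CPM, a log2 fold change of -0.91 ± 0.19 (edgeR adjusted p = 0.017). The groups did not overlap in any of these repressors.

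The fourth gene was Nr1d2, with a log2 fold change of -1.54 ± 0.36 (SE, n = 3 per group; edgeR adjusted p = 0.0266), and its groups of 39.4 to 105 and 16.8 to 28.7 CPM did not overlap. This call was kept in 5 of 8 alternatives and lost with no filter on low counts, with only the groups compared and with sex as a covariate (adjusted p up to 0.385). Npas2 was at 13.3 to 17.0 CPM after DSS against 0.607 to 5.80 CPM before, with a log2 fold change of 2.73 ± 1.06 that did not pass the test (edgeR adjusted p = 0.153). Leaving out untreated mouse 1 gave 4.65, which was called (edgeR adjusted p = 0.0479), and leaving out untreated mouse 2 gave 2.27. Per1, at -2.00 ± 0.63, had an edgeR adjusted p of 0.0881, and Nr1d1, at -0.89 ± 0.28, one of 0.0728. Per1 was called in 3 of 8 alternatives (adjusted p 0.00356 to 0.42), Nr1d1 in 2 of 8 (0.019 to 0.489) and Npas2 in 1 of 7 (0.0224 to 0.702). Clock was the only member whose untreated and DSS-treated groups overlapped, so 9 of 10 did not overlap, beside 31.8% of all tested genes.

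The 3 DSS-treated livers labelled RelaΔhepStat3Δhep all had high Xist and the 3 untreated ones low Xist. With sex as a covariate, an estimate that rests on wild-type untreated mouse 3, none of the 10 members was called, the adjusted p of Per2 being 0.348 at a log2 fold change of -2.23. Leaving out each liver in turn kept the call of Per2 in 6 of 6 fits, with an adjusted p of up to 0.0391, and kept that of Per3 in 1 of 6. Cry2 and Nr1d2 kept theirs in 3 of 6 each. Markers of several cell types moved in the same comparison, and their part in the falls was not tested. Of 6 Kupffer cell markers 5 were called higher, and of 4 stellate cell markers 1, Des, was (log2 fold change 1.98 ± 0.42, edgeR adjusted p = 0.0179). Of 5 hepatocyte markers 1, Cyp2e1, was called lower, from a mean of 6440 to one of 1500 CPM (-2.10 ± 0.46, edgeR adjusted p = 0.0193), while the other 4 were between -0.33 and 0.22. The summed neutrophil markers went from 0.345 to 0.572 CPM to 5.91 to 21.7 CPM, and the 3 tested of 5, S100a8, S100a9 and Retnlg, had groups that did not overlap and did not pass the test. The log2 fold changes were 4.68 for S100a8 (edgeR adjusted p = 0.0792) and 4.60 for S100a9 (edgeR adjusted p = 0.0638), and Retnlg was at 0 CPM in the 3 untreated livers and at 0.407 to 1.41 CPM after DSS (edgeR adjusted p = 0.0501). In bulk liver RNA, fewer cells of a type and less RNA per cell cannot be told apart.

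Tested directly, the DSS response did not differ between the genotypes for any of the 10 members with edgeR, beside 0.408% of tested genes called. At an unadjusted p under 0.05 there were 4, beside 16.3% of tested genes, and DESeq2 called 1 of them, Per1, beside 4.50% of the genes it tested. This test subtracts the untreated genotype difference that brought the genes to notice, so these counts are in part set by the choice of genes and nothing is read from them. Per1 had the largest difference, a log2 value of -3.11 ± 0.89 (SE, n = 3 per group; edgeR adjusted p = 0.156). The others were Per2 at -1.55 ± 0.60, Per3 at -2.70 ± 1.01 and Nr1d2 at -1.20 ± 0.49. Without wild-type DSS-treated mouse 2, Per1 was at -2.32, Per2 at -0.93 and Per3 at -1.11, and without untreated mouse 2 labelled RelaΔhepStat3Δhep, Nr1d2 was at -0.64. Leaving out wild-type DSS-treated mouse 3 put Per1 at -3.57, where it was called (edgeR adjusted p = 0.0478).

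**Figure D2:**
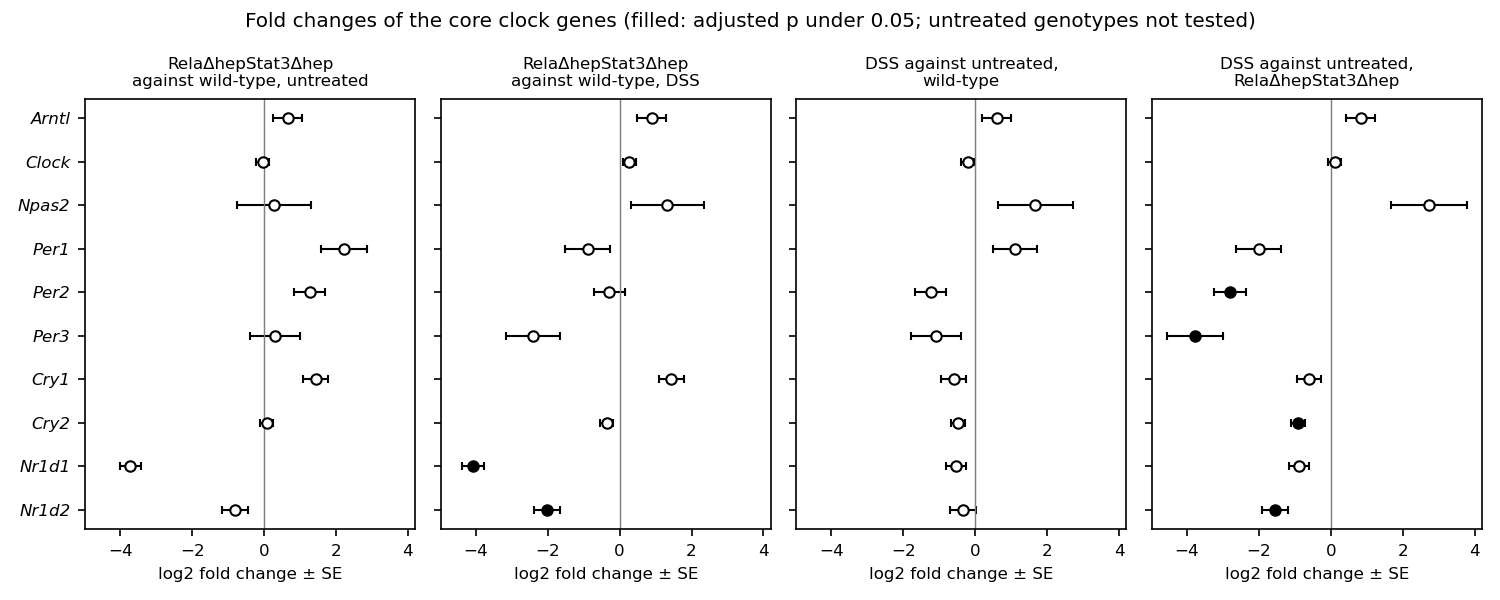
Log2 fold change of each core clock gene in 4 comparisons, with bars of 1 standard error from the edgeR model (n = 3 mice per group). Filled points passed an adjusted p of 0.05, and no call is shown for the untreated genotypes because that comparison chose the genes. Nr1d1 lies at -3.72 and -4.08 in the genotype comparisons and at -0.53 and -0.89 in the DSS comparisons.

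These patterns were then described by the form that a single shift in clock time would give. If every gene follows a daily wave of equal height, then moving the clock by some hours changes each gene by an amount that is itself a wave in the gene's own peak time. Coarse textbook peak times were used, at 0 h for dawn (Arntl, Clock, Npas2), 6 h (Nr1d1, Nr1d2), 12 h (Per1, Per2, Per3, Cry2) and 18 h (Cry1). A wave with a free height, peak and overall level was fitted to the 10 log2 fold changes of each comparison, and the share of their variance that it took up is given with no test. So few distinct peak times leave such a fit little room to fail, and unrelated values would also give a share above 0. The share depends largely on how alike genes of the same peak time are, and it cannot decide whether a single shift fits. A shift of equal waves alone has a level of 0. The fitted levels were 0.34 between untreated genotypes, -0.28 between DSS-treated genotypes, -0.05 for DSS in wild-type livers and -0.67 for DSS in the livers labelled RelaΔhepStat3Δhep, so the shares describe a wave and a level together. Equal heights are a simplification, since Clock and Cry2 vary little over the day in liver and Nr1d1 varies widely.

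A wave and a level took up 59.6% of the variance between untreated genotypes, 76.8% between DSS-treated genotypes, 24.5% for DSS in wild-type livers and 72.3% for DSS in the livers labelled RelaΔhepStat3Δhep. With the level held at 0, the wave alone took up 55.4%, 77.2%, 25.3% and 66.9% of the summed squares of the log2 fold changes, in the same order. The fit to the untreated genotypes was pulled by Nr1d1. It placed Nr1d1 and Nr1d2 together at -1.77, where the measured log2 fold changes were -3.72 and -0.81. When the wave was fitted to the other 9 genes, it predicted -0.57 for Nr1d1, and its share of those 9 was 50.3%. Between the DSS-treated genotypes the other 9 genes predicted -1.85, where -4.08 was measured. With no level the predictions were -1.13 and -1.73. The untreated comparison chose the genes, leaving out Nr1d1 was decided after seeing the data, and a gene of large daily swing would lie beyond a wave of equal heights, so these gaps are descriptions only. Nr1d2 is also the only other gene placed at 6 h, so each prediction rests largely on its value, and the gap compares Nr1d1 with Nr1d2 more than with the rest.

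In the DSS response of the livers labelled RelaΔhepStat3Δhep, the 9 other genes predicted -1.15 for Nr1d1 (-0.47 with no level), on either side of the -0.89 ± 0.28 measured (SE, n = 3 per group), and the share was 72.4% for those 9 genes, next to the 72.3% for all 10. The farthest from that wave were Npas2, at 2.73 against a fitted 1.12, and Cry2, at -0.91 against -2.45. Without the low-amplitude genes Clock and Cry2 the share was 87.1%. The wild-type DSS response was poorly described by a wave, with Per1 at 1.11 against a fitted -0.58 while Per2 and Per3 were at -1.24 and -1.08. Its share was 7.29% without wild-type DSS-treated mouse 3, where Per1 was at 1.57. Without mouse 2 the share was 50.4% and Per1 was at 0.30.

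**Figure D3:**
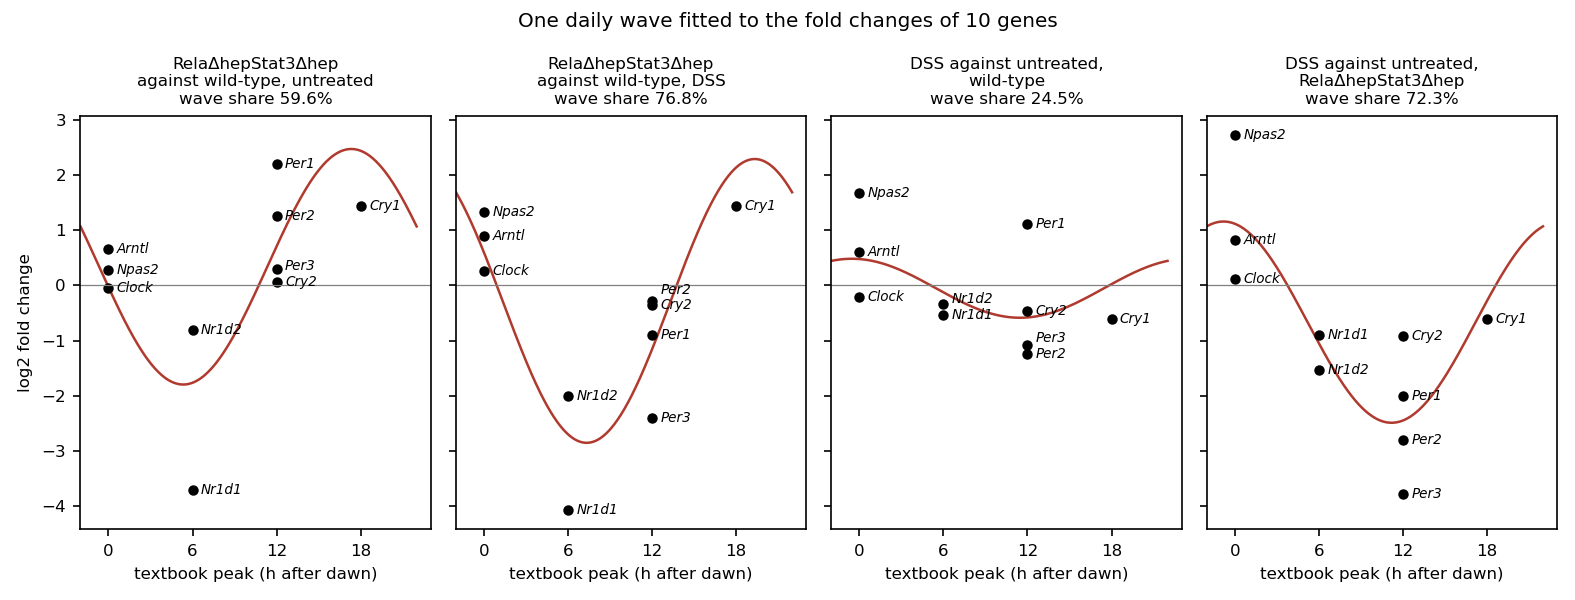
Log2 fold change of each gene against its textbook peak time in hours after dawn, with the fitted 24-hour wave and its free level in red, in 4 comparisons. Nr1d1 lies below the curve in both genotype comparisons, at -3.72 and -4.08, and near it in the DSS response of the livers labelled RelaΔhepStat3Δhep, at -0.89. The title of each panel gives the share of variance taken up by the wave and level.

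The same wave, with a free level, was fitted to each liver's levels, taken relative to the mean of the 12 livers. The fitted peak was at 8.0, 6.8 and 6.7 h in untreated wild-type livers and at 17.8, 13.4 and 14.8 h in untreated livers labelled RelaΔhepStat3Δhep. It was at 20.8, 20.5 and 20.3 h in the DSS-treated livers labelled RelaΔhepStat3Δhep. The DSS-treated wild-type livers were at 3.5, 8.3 and 3.3 h, with mouse 2 near the untreated wild-type livers. These hours place livers relative to each other on the members' pattern and are not hours of collection. The wave took up 44.8% to 79.0% of the variance within a liver.

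The within-group spread had a pattern of its own. With each group's mean taken off, a single component took up 81.7% of the variance of the 10 genes, but the spread was uneven over the groups. DSS-treated wild-type livers held 64.6% of the within-group sum of squares and untreated livers labelled RelaΔhepStat3Δhep 26.1%, against 4.84% for untreated wild-type and 4.49% for DSS-treated livers labelled RelaΔhepStat3Δhep. Without wild-type DSS-treated mouse 2 the component's share was 61.8%, and in the 2 groups of small spread alone the first component took up 44.1%. Along it Arntl moved with Npas2 (within-group r = 0.90) and opposite to Per3 (r = -0.95) over the 12 livers. Nr1d1 had within-group r values of -0.59 to 0.35 with the other members. The livers that stood farthest from their group mates in Npas2 were wild-type DSS-treated mouse 2, at 0.430 CPM against 8.89 and 9.18 CPM, and untreated mouse 1 of those labelled RelaΔhepStat3Δhep, whose Npas2 was 5.80 CPM against 0.607 and 0.634 CPM. They are descriptions over 12 libraries, and the members share those libraries.

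Over the 12 livers 2 components were needed, with 59.6% and 31.4% of the variance. The first was led by Npas2 (loading 0.58) and Per3 (-0.52), the second by Nr1d1 (0.74), Per1 (-0.38) and Per2 (-0.33). Ratios of pairs of these genes give the same layout on a plain scale and are not a separate result. The log2 ratio of Arntl to Nr1d1 was -2.92 to -0.96 in the 6 wild-type livers and 0.73 to 3.71 in the 6 livers labelled RelaΔhepStat3Δhep, without overlap in either treatment. The log2 ratio of Npas2 to Per3 was instead above 0 in 5 livers, 3 DSS-treated livers labelled RelaΔhepStat3Δhep at 3.63 to 3.78 and wild-type DSS-treated mice 1 and 3 at 1.90 and 2.44. In the other 7 it was between -5.23 and -0.63. The Arntl to Nr1d1 ratio separated the genotypes, and the Npas2 to Per3 ratio separated 5 of the 6 DSS-treated livers from the untreated ones. Nr1d1 alone separated the genotypes, at 43.3 CPM or more in wild-type livers and 8.61 CPM or less in the others, while Arntl overlapped. Npas2 and Per3 lead the first component of these same livers, so neither ratio adds support.

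**Figure D4:**
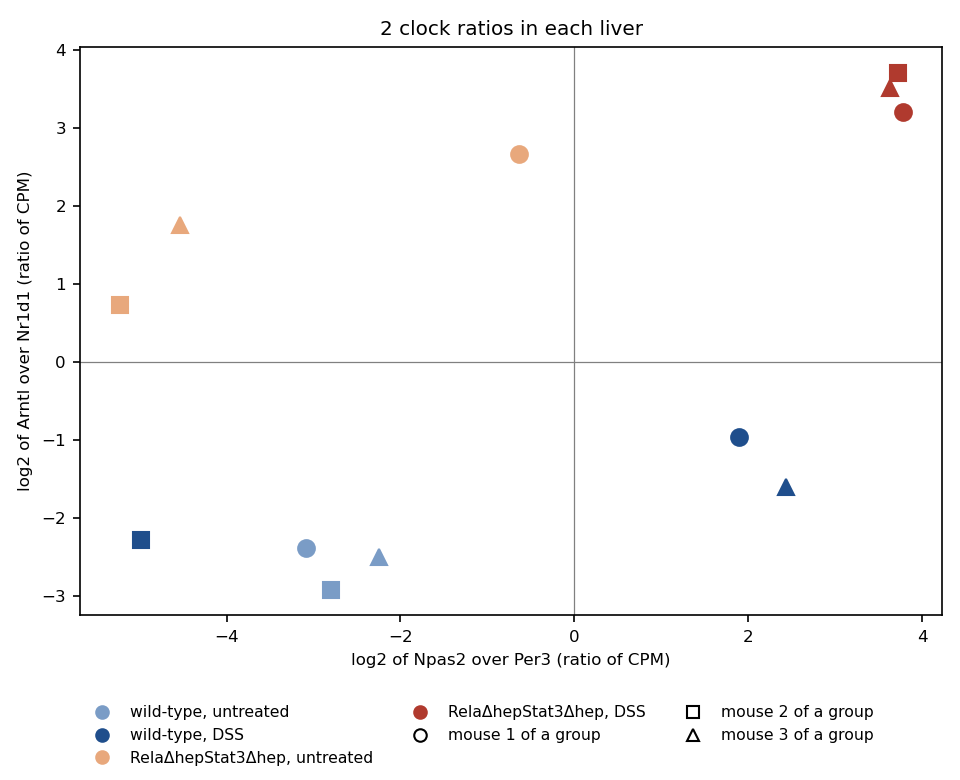
Log2 ratio of Arntl to Nr1d1 against log2 ratio of Npas2 to Per3, both ratios of CPM, for each of the 12 livers. Colours mark groups and symbols mark mice 1 to 3. The 6 wild-type livers lie below 0 on the vertical axis and the 6 livers labelled RelaΔhepStat3Δhep above it, and wild-type DSS-treated mouse 2 lies at -4.98 on the horizontal axis, beside untreated livers.

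The 250 bases before the annotated start of each member were read from mm9 at the GENCODE vM1 starts and searched on both strands for the letters of clock motifs and a STAT site. The E-box CACGTG, bound by the activator pair, was found in Per1 and Cry1, and in 7.36% of 14418 tested genes with such a window. The E′-box CACGTT was found in Cry1, Cry2 and Nr1d1 (4.40% of windows). The D-box, searched as TTATGTAA and TTACGTAA and bound by the factors DBP, TEF and HLF, was found in Per2 and Per3 (0.825%). The Rev-erb element core TAGGTCA (1.93%) and the STAT site TTCCNGGAA (0.992%) were found in none of the 10 windows. The windows of Arntl, Clock, Npas2 and Nr1d2 thus held no match. A match is a description of letters, and none in this window says nothing of sites elsewhere.

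The 4 windows printed here include that of the gene that differed most between genotypes. The others are those of the Per genes called lower with DSS in the livers labelled RelaΔhepStat3Δhep, and of Cry1, which holds both E-box forms. They run 5′ to 3′ along the gene's strand, and capitals mark the motif letters.
Nr1d1, chr11:98636648-98636897 (minus strand): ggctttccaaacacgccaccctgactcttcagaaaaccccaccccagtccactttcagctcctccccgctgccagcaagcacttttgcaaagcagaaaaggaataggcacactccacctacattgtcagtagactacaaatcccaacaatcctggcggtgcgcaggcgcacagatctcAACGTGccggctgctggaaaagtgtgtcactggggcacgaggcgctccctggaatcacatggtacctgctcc
Per2, chr1:93355908-93356157 (minus strand): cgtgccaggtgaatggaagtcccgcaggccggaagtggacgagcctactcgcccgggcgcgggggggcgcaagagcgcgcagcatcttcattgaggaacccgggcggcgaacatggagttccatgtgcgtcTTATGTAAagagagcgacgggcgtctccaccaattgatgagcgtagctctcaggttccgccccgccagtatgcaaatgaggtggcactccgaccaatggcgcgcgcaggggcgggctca
Per3, chr4:150418775-150419024 (minus strand): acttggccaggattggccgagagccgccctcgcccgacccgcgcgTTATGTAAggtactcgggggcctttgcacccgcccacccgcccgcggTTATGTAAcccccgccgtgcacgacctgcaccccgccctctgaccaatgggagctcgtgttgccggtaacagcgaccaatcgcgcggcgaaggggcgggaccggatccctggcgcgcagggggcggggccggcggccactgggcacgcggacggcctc
Cry1, chr10:84647800-84648049 (minus strand): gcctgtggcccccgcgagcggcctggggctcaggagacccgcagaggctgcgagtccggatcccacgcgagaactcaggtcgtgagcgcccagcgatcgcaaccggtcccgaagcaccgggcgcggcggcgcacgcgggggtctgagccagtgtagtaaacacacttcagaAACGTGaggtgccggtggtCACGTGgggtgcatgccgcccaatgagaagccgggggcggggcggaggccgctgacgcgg

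The D-box occurs once in the Per2 window and in 2 copies in that of Per3. Its part in the levels of these genes was not tested. The genes for the D-box activators were on the list of clock-linked genes, which names 27 genes, of which 24 have a row. All 3 of them fell in the DSS response of the livers labelled RelaΔhepStat3Δhep. Dbp went from 2.05, 8.98 and 3.47 CPM to 0.185, 0.335 and 0.367 CPM, a log2 fold change of -4.01 ± 0.92 (SE, n = 3 per group; edgeR adjusted p = 0.0314). Tef had a log2 fold change of -2.86 ± 0.44 (edgeR adjusted p = 0.00623) and Hlf one of -1.61 ± 0.21 (edgeR adjusted p = 0.00174). In untreated livers Dbp was at 29.4, 26.9 and 13.6 CPM in wild-type, above the 2.05 to 8.98 CPM of the livers labelled RelaΔhepStat3Δhep, while Tef overlapped between them. Hlf lay the other way, at 67.5, 48.9 and 56.2 CPM in untreated wild-type livers and at 69.7, 109 and 79.8 CPM in those labelled RelaΔhepStat3Δhep, groups that did not overlap (log2 fold change 0.58 ± 0.21, given without a test).

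Of the 24 clock-linked genes, edgeR called 10 lower with DSS in the livers labelled RelaΔhepStat3Δhep, beside 2.46% of tested genes called lower (7.02% in either direction). Log2 fold changes were below 0 in 15 of the 24 and above 0 in 9, with a median of -0.70 for the 24 and -0.01 for all tested genes. The list was chosen with earlier results known, and both DSS responses use the untreated livers that brought the clock to notice. Nothing is therefore read from the counts of listed genes, or from this median, against all tested genes in either response. Besides the D-box activators, the 10 called lower were the E-box repressor Bhlhe41 (-2.87 ± 0.75) and 6 of the 8 clock output genes with a row. Among the outputs, the deubiquitinase gene Usp2 went from 32.8, 73.5 and 48.1 CPM to 1.28, 2.04 and 3.59 CPM, a log2 fold change of -4.48 ± 0.70 (SE, n = 3 per group; edgeR adjusted p = 0.0081). Wee1, a kinase gene of the cell cycle, had a log2 fold change of -2.24 ± 0.31 (edgeR adjusted p = 0.00239). Elovl3, which encodes a fatty acid elongase, went from 284, 60.0 and 29.1 CPM to 0.271, 0.120 and 0.283 CPM, a log2 fold change of -9.12 ± 1.82 (edgeR adjusted p = 0.0224). The other 3 were Alas1, the first enzyme of haem synthesis, Gys2, the liver glycogen synthase, and Por, the electron donor of cytochromes P450, with log2 fold changes of -1.97 ± 0.36, -1.17 ± 0.23 and -1.79 ± 0.43. As for the members, none of the 24 was called with sex as a covariate, and 5 to 9 were called when 1 liver was left out. Alas1, Hlf, Tef, Usp2 and Wee1 were called in all 6 of those fits. Gys2 was called in 4 of them, Elovl3 and Por in 2 each, Dbp in 1 and Bhlhe41 in 0. Bhlhe41 was called in 3 of the 8 alternatives and Dbp in 5.

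The 7 genes for kinases and ubiquitin ligases that act on PER and CRY proteins had a median log2 fold change of -0.15 between the DSS-treated genotypes, 0.05 for DSS in wild-type livers and 0.03 for DSS in the livers labelled RelaΔhepStat3Δhep. Fbxl21, an F-box gene among them, had log2 values away from these medians, at -0.59 ± 0.34 for DSS in wild-type livers (edgeR adjusted p = 0.466) and 0.92 ± 0.48 for the difference between the responses (edgeR adjusted p = 0.359), and its untreated genotypes did not overlap (-0.70 ± 0.34, given without a test). Without wild-type DSS-treated mouse 3 edgeR called Fbxl21 in both of these tests. In wild-type livers 11 of the 24 had log2 fold changes below 0 with DSS and 13 above. Dbp at -2.34 and Usp2 at -2.25 were among the lower ones and did not pass the test. EdgeR called 1 of the 24 lower, Wee1, with a log2 fold change of -1.52 ± 0.31 (edgeR adjusted p = 0.0461), beside 0.232% of tested genes called lower. That call was kept in 4 of 8 alternatives and in 0 of the 6 fits that left out a liver. It was lost with limma-voom, with only the groups compared, with the replicate block and with sex as a covariate. Between the DSS-treated genotypes none of the 24 was called by edgeR, beside 0.334% of tested genes. Without wild-type DSS-treated mouse 1 it called 4 of the 24, Bhlhe41, Dbp, Lonrf3 and Tef, with 392 calls over all tested genes against 59, and without mouse 2 it called 1, Elovl3. Of the 24, 7 were under an unadjusted edgeR p of 0.05, as were 14.3% of tested genes, and DESeq2 called 5, as it did 3.40% of the genes it tested. The list was chosen with earlier results known, so nothing is read from these counts against the shares of tested genes. The smallest adjusted p was that of Lonrf3, a ring finger gene, at 15.0 to 21.4 CPM in the livers labelled RelaΔhepStat3Δhep and 3.04 to 8.41 CPM in wild-type livers (log2 fold change after DSS 1.50 ± 0.32, edgeR adjusted p = 0.0705). Its 6 wild-type livers did not overlap with the other 6, in the direction opposite to Nr1d1.

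The genes most like Nr1d1 and Arntl were taken by Pearson correlation of log2 CPM over the 12 livers, among 10997 named genes with a mean of at least 1 CPM. For Nr1d1 the highest were Rtel1 (r = 0.92), Phf17 (0.90), Sphk2 (0.89), Tenc1 (0.88) and Scfd2 (0.88), and among the lowest were Nrip1 (-0.93), Fam167a (-0.89), Gkap1 and Cd207 (-0.88 each). With group means taken off, these values were between -0.67 and 0.63, so the likeness lay mostly between groups. For Arntl the highest were Bod1l (0.95), Chka (0.94), Pik3c3 (0.91), Qser1 (0.90) and Wrn (0.89), and the lowest Uox (-0.94) and Dbp, Trabd, Rpain and 1110065P20Rik (-0.89 each). With group means taken off, these 10 stayed between 0.78 and 0.95 or between -0.90 and -0.77. The points are 12 libraries, of which wild-type DSS-treated mouse 2 lies far from its group, and the correlations carry no test.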

How the data were processed

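Total RNA from the livers of 12 mice, 3 in each of 4 labelled groups, was sequenced in paired-end mode after removal of rRNA. Per the labels and methods of the study, the authors trimmed reads with fastp, aligned them to mm9 with HISAT2 and counted genes with StringTie, and they tested genes with DESeq2. The deposited values are expected counts, given as whole numbers and not normalised (total 65879529 to 82850098 per library). Strand and hour of collection are not given in the sources used here.

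Symbols and positions came from GENCODE vM1. Counts were fitted in edgeR 4.0.16 (R 4.3.3; filterByExpr, TMM, robust quasi-likelihood F test) in 1 model of the 4 groups, with Benjamini-Hochberg adjustment over 17652 genes and a threshold of 0.05. Log2 CPM used a prior count of 2. All 10 members, the listed clock-linked genes, the 5 genes most and least like Nr1d1 and Arntl, and check genes were named by rule. The members and lists were chosen with earlier results of these data known. Textbook peak times came from general knowledge, not from the files. Noct and Insig2 were not analysed here, and some genes that the rule would name are not reported here.

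Alternatives were DESeq2 1.42.0, limma-voom (limma 3.58.1) with quality weights, DESeq2 size factors, fits of the compared groups alone, no low-count filter, a floor of 10 counts for each library, a replicate block, a sex covariate (Xist above 100 CPM) and leaving out each liver. For the wave they were finer peak times, leaving out Clock and Cry2, DESeq2 fold changes and, chosen after seeing the data, leaving out Nr1d1 and holding the wave's level at 0. The steps were tested on simulated data.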

Additional observations from a re-analysis of the deposited data

Results flagged for a closer look

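Arntl2, a relative of Arntl on the list of clock-linked genes, stood out because its DSS-treated mice lay on opposite sides of the untreated means in the genotypes. Every DSS-treated mouse labelled RelaΔhepStat3Δhep was above the untreated mean of its genotype and every wild-type one below its own. The levels were low, 0.248 to 0.927 CPM over the 12 livers. Neither response passed the test, at a log2 fold change of -0.20 ± 0.39 in wild-type livers (SE, n = 3 per group; edgeR adjusted p = 0.872) and 0.67 ± 0.39 in the livers labelled RelaΔhepStat3Δhep (edgeR adjusted p = 0.321), and the DSS-treated and untreated groups overlapped in both genotypes. The difference between the responses was a log2 value of 0.87 ± 0.55 (SE, n = 3 per group) and did not pass the test (edgeR adjusted p = 0.452).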

How the results depend on the processing

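In the tested comparisons, of 610 values of the 10 members under the alternatives, 553 kept their direction and side of the threshold, 25 fell below it, 15 passed it and 17 changed sign. Between the untreated genotypes, where no p-value is given because that comparison chose the genes, 12 of 140 values changed sign, in 4 members. Nr1d1 between the DSS-treated genotypes was called in all 8 alternatives (adjusted p up to 0.0137, with sex as a covariate) and in all 6 fits that left out a liver (up to 0.00259). With DESeq2, members called between genotypes numbered 4 untreated and 4 after DSS, against 1 and 2 with edgeR, and those called for DSS in wild-type livers and for the difference between the responses 1 each, against 0. For DSS in the livers labelled RelaΔhepStat3Δhep DESeq2 and limma-voom each called 6, against 4. DESeq2 also called more of all tested genes in each comparison, 2315 against 1240 in this one, so nothing is read from these higher counts of members. For the untreated genotypes limma-voom, only the groups compared and the replicate block each called 2. The untreated counts are on the values that chose the genes and support nothing. Between the DSS-treated genotypes limma-voom, no filter and the sex covariate each called 1. For DSS in the livers labelled RelaΔhepStat3Δhep the sex covariate called 0, against 4. Leaving out 1 liver gave 1 to 2 members between the DSS-treated genotypes, 0 to 2 for DSS in wild-type livers (2 without DSS-treated mouse 2), 1 to 5 for DSS in the livers labelled RelaΔhepStat3Δhep (5 without untreated mouse 1, 1 without untreated mouse 2 or DSS-treated mouse 1, 2 without either mouse 3) and 0 to 1 for the difference (1 without wild-type DSS-treated mouse 3).

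Over all tested genes the calls ran from 2 (sex covariate) to 334 (DESeq2) against 11 between untreated genotypes, from 5 to 583 against 59 after DSS, and from 4 to 2315 against 1240 for DSS in the livers labelled RelaΔhepStat3Δhep, with the same settings. They ran from 21 (only the groups compared) to 859 (DESeq2) against 121 for DSS in wild-type livers, and from 4 (sex covariate) to 698 (DESeq2) against 72 for the difference. When 1 liver was left out they were 2 to 9, 11 to 392, 241 to 838, 35 to 209 and 21 to 220 in the same order, so the shares of tested genes set beside the members' counts move with single livers. The clock-linked genes called in the 5 comparisons, in the same order, were 0, 0, 10, 1 and 0 with edgeR and 5, 5, 11, 3 and 5 with DESeq2, and 0 to 1, 0 to 4, 5 to 9, 0 to 3 and 0 to 1 when 1 liver was left out.

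The wave's share between untreated genotypes was 54.3% with finer peak times, 50.3% without Nr1d1, 55.4% with no free level and 55.7% to 63.2% when 1 liver was left out. For DSS it was 7.29% to 50.4% in wild-type livers when 1 liver was left out, and 87.1% without Clock and Cry2 in the livers labelled RelaΔhepStat3Δhep. Between the untreated genotypes Npas2, at 0.28, was -0.37 with limma-voom, -0.30 with the replicate block and -1.64 to 0.73 when 1 liver was left out, the lowest without mouse 1 labelled RelaΔhepStat3Δhep. When 1 liver was left out Per3 was -0.10 to 0.59, Clock -0.18 to 0.04 and Cry2 -0.04 to 0.23 there. Between the DSS-treated genotypes Per2 was 0.14 with limma-voom, 0.28 with the sex covariate and -0.54 to 0.35 when 1 liver was left out. Clock for DSS in the livers labelled RelaΔhepStat3Δhep was -0.05 with the sex covariate and -0.06 to 0.29 when 1 liver was left out. In the difference between the responses Arntl was -0.17 with the sex covariate and -0.16 to 0.50 when 1 liver was left out, and Cry1 was 0.01 with no filter, 0.02 with the replicate block, 0.05 with the sex covariate and -0.36 to 0.22 when 1 liver was left out. The causes were not tested.

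Mice of different groups share only a replicate number. The deviations of 18 same-numbered pairs correlated at -0.089 to 0.168, against -0.128 to 0.125 for other pairs. With the replicate block, members called were 2, 3, 0, 4 and 0 for the untreated genotypes, the DSS-treated genotypes, DSS in wild-type livers, DSS in the livers labelled RelaΔhepStat3Δhep and the difference, against 1, 2, 0, 4 and 0 without it. With 3 mice a group, the common biological coefficient of variation was 0.317. The lowest expected count was 27 for Npas2 and 82 for the other members. What limits the members' precision was not tested.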
